A study of Mus musculus with 102 samples.

Results

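Here 9 genes that encode neuropeptide precursors were followed in the brain of ageing mice: Sst, Npy, Vip, Cck, Tac1, Penk, Pdyn, Crh and Pnoc. They were chosen by name, with earlier results of these data known, as the 9 of 51810 rows of the brain table that carry these symbols. The series measured gene expression by RNA sequencing in tissues of mice of different ages. The animals used here were males of 1 background, given as BL6J in the titles and labelled WT, and the labels name no treatment, transgene or deletion for them. Brains were flash frozen, and the labels name no region and no sorted cell type. There were 7 libraries at 3 months, 9 at 5 months, 8 at 8 months, 9 at 14 months, 7 at 20 months and 5 at 26 months. Replicates 1 and 6 of the 5-month group differed by less than sampling noise in their reads, and so did replicates 4 and 7 of the 8-month group. The mean of each such pair was used as 1 sample, which left 43 samples, with 8 of 5 months and 7 of 8 months. The title of each brain carries its own code, and the labels do not say in words how animals were assigned, so a p-value measures the spread between these samples.

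Neuropeptides are made as large precursors that are cut by proprotein convertases, trimmed and amidated inside dense-core granules, and released to act on G-protein-coupled receptors. In the forebrain many of them mark classes of inhibitory neuron. Somatostatin (Sst), neuropeptide Y (Npy) and vasoactive intestinal peptide (Vip) are made by cortical and hippocampal interneurons, and cholecystokinin (Cck) by interneurons and by many excitatory neurons. Proenkephalin (Penk) is abundant in striatal projection neurons that carry the D2 dopamine receptor, while substance P (Tac1) and prodynorphin (Pdyn) are abundant in those that carry the D1 receptor. Corticotropin-releasing hormone (Crh) drives the stress axis from the hypothalamus and is also made by cortical interneurons, and prepronociceptin (Pnoc) gives the ligand of the nociceptin receptor.

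Several neuropeptide genes are textbook targets of the cyclic AMP pathway, whose transcription factor CREB binds the palindrome TGACGTCA or its core TGACG. The RefSeq promoter table (GRCm38.p6, 250 bases before to 50 after each start) held 7 promoters of 6 of the 9 genes: Sst, Npy, Vip, Cck, Tac1 and Pdyn. Penk, Crh and Pnoc had no entry. The palindrome was found in 1.79% of the 32851 promoters in the table and, among the 6 genes, in Sst. Its core TGACG, searched on both strands (CGTCA on the other) and also contained in the palindrome, was found in 20.8% of all promoters and in those of 4 of the 6 genes: Sst, Vip, Cck and Tac1. The 30 bases around these matches are shown because they differ between the genes in spacing and in the bases that flank the core. They run 5′ to 3′ on the strand of the gene, with the match in capitals.
Sst: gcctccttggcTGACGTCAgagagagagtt
Vip: ggatcactactgTGACGtctttcggggagc
Cck: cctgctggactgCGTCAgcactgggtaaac
Tac1, near: gctctacaggctCGTCAcgcctgagataaa
Tac1, far: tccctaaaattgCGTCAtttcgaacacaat

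The Sst match starts 48 bases before the RefSeq start (chr16:23890874-23890903, minus strand), the Vip match 79 bases before (chr10:5639127-5639156, plus strand) and the Cck match 47 bases before (chr9:121495724-121495753, minus strand). Tac1 holds 2 matches on the plus strand, at 43 bases (chr6:7555006-7555035) and at 197 bases before the start (chr6:7554852-7554881). GENCODE M21 places the first base of Sst and of Tac1 further upstream than RefSeq, so the Sst window, the whole near Tac1 window and the end of the far Tac1 window lie within the GENCODE gene. A match is a description of these letters, and no factor binding was measured here.

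Depth allowed every member to be measured in every brain. Reads in genes ran from 4072076 to 13655235 per library, with a median of 8002219. Of the 51810 rows, 15566 had a normalized read count of at least 10 in at least 5 libraries and were tested. All 9 members were among them, and the lowest value of any member in any of the 43 samples was 39.97, for Pnoc at 14 months. The median number of reads per sample ran from 56 for Pnoc to 1163 for Penk. The tissue label was checked against defining markers: the glutamate transporter gene Slc17a7 was at 2123 to 6349 normalized counts, the GABA-synthesis gene Gad1 at 2725 to 4738 and the myelin gene Mbp at 9853 to 17319. Gabra6 and Cbln3, markers of cerebellar granule cells, were at 0 to 12.2 and at 0.958 to 24.3, so these markers were at or near 0. Among 207 genes of the lists used here, 11 were listed at 0 in all 45 libraries, the neuronal gene Nefl and the astrocyte gene Gfap among them, and none was a neuropeptide member.

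Levels can be compared between genes only per length, so the normalized count was divided by the kilobases of exon in GENCODE M21. This length pools the exons of all transcripts of a gene, and the annotation used for counting is unknown. The order below therefore rests on these lengths, which were 3399 bases for Tac1 and 1634 for Penk. Before division the means of these 2 genes were 918 and 1076 normalized counts. On this scale Sst was highest, at 1205 ± 226 normalized counts per kilobase (SD, n = 43), above Cck in 43 of 43 samples. Cck at 660 ± 109 and Penk at 659 ± 157 could not be ordered, since Cck was the higher in 22 of 43 samples. Tac1 followed at 270 ± 64.9, below Penk in 43 of 43 samples and above Npy, at 189 ± 39.5, in 38 of 43. The 4 remaining genes were lower, with Crh at 54.9 ± 14.6, Vip at 51.0 ± 7.37, Pdyn at 44.0 ± 8.75 and Pnoc at 26.1 ± 4.69. Crh exceeded Vip in 22 of 43 samples, Vip exceeded Pdyn in 32, and Pnoc was below Pdyn in 43.

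Ages were compared in 8 ways with limma on log2 of the normalized count plus 1: any difference among the 6 ages, a straight line against age in months, each later age against 3 months, and 26 against 14 months. The 5 comparisons with 3 months share the same 7 samples. A call is a Benjamini-Hochberg adjusted p under 0.05 over all 15566 tested genes, and "over the span" below is the fitted slope times the 23 months from 3 to 26. Penk was the 1 member called in any of the 8, on the straight line, where 1.58% of all tested genes were called in either direction and 0.283% were called lower with age. For all 9 members the fitted slope was below 0, with a median of -0.21 over the span on the log2 scale, against -0.00062 for all tested genes, of which 50.2% were below 0. Slopes of genes from the same brains are not independent of each other. The members were also chosen with earlier results of these data known, so this count is a description and not a test. Among the marker lists below, slopes were below 0 for 12 of 12 striatum and 9 of 9 pan-neuronal genes, and for 1 of 6 olfactory bulb genes.

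**Figure D1:**
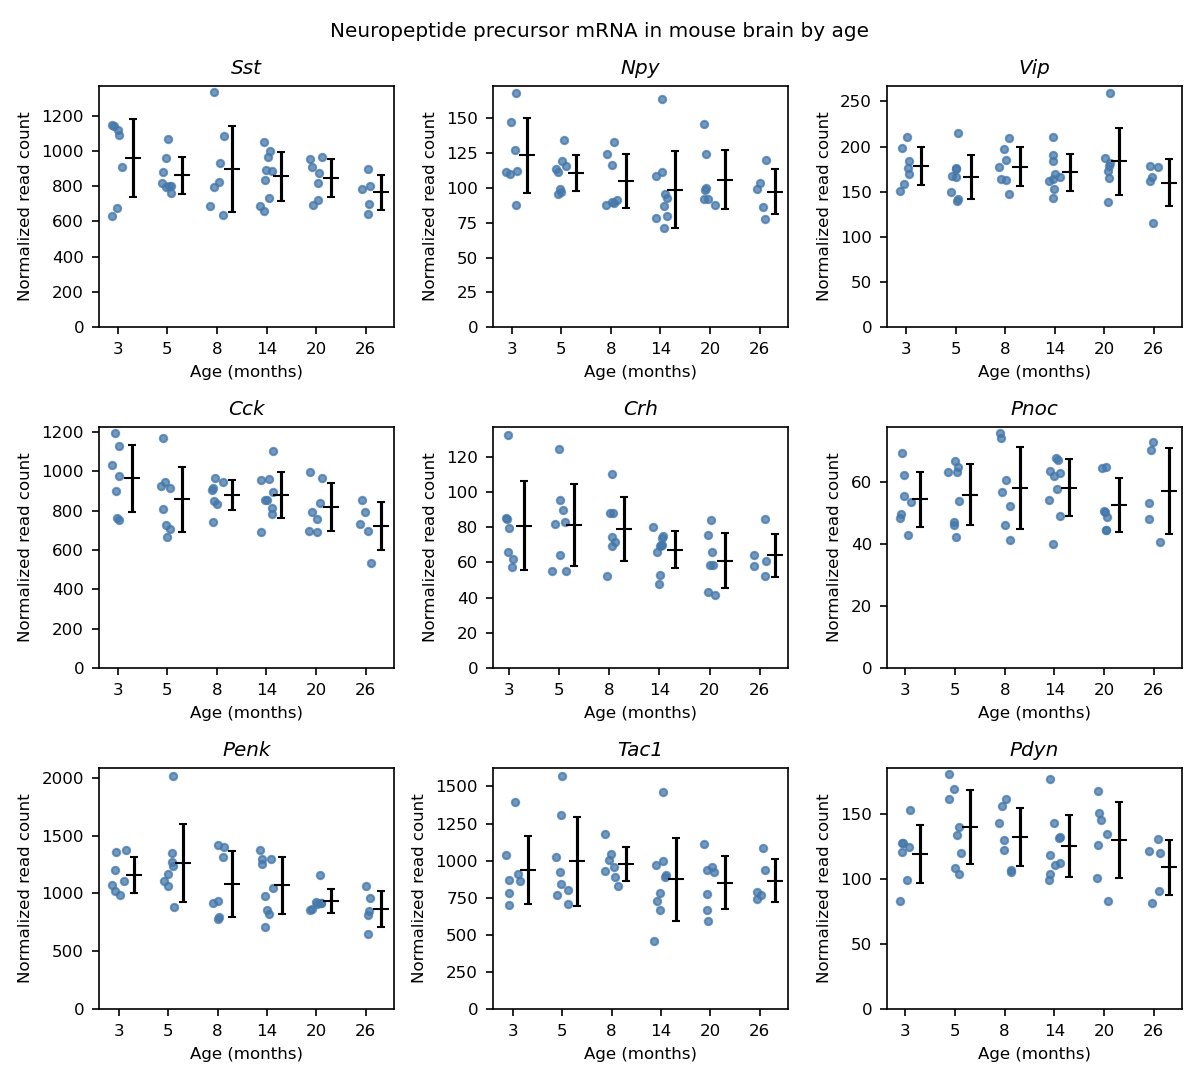
Normalized read counts (vertical axis, from 0) of the 9 neuropeptide genes in brain at 3, 5, 8, 14, 20 and 26 months (horizontal axis, categories). Points are samples and the bars beside them are the mean and SD. Penk means go from 1158 at 3 months to 867 at 26 months with overlapping points, and Pnoc means stay between 52.7 and 58.3.

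Penk, the precursor of the enkephalins, fell with age along the line. At 3 months its 7 samples ran from 985 to 1373 normalized counts with a median of 1105, and at 5 months from 884 to 2015 with a median of 1204. At 8 months the lowest, median and highest were 778, 933 and 1422, and at 14 months 707, 1042 and 1372. The 4 ages up to 14 months overlapped, with the widest spread at 5 months. At 20 months the samples lay between 855 and 1160 with a median of 916. The 5 samples of 26 months were at 650, 961, 815, 850 and 1061. Of these 5, 4 lay below every 3-month sample, and the other, at 1061, lay within the 3-month range.

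The group means of Penk were 1158 ± 157 at 3 months (n = 7), 1263 ± 336 at 5 (n = 8), 1081 ± 286 at 8 (n = 7), 1069 ± 244 at 14 (n = 9), 935 ± 103 at 20 (n = 7) and 867 ± 155 at 26 months (n = 5). The slope was -0.020 per month with an SE of 0.0053 (limma, adjusted p = 0.0281), a change of -0.47 over the span (95% interval -0.71 to -0.22), or -27.7% (-38.9 to -14.3%). It ranked 220 of 15566 tested genes from the lowest slope. The direct comparison of 26 with 3 months gave -0.43 (-0.75 to -0.10) and was not called (limma, adjusted p = 0.293), nor was any difference among ages (adjusted p = 0.562). The call on the line was not kept in every setting: without 26-month replicate 1 the adjusted p was 0.0908, without 26-month replicate 4 it was 0.0502, without the 3-month samples 0.0862, with log2 of age 0.0577 and with no filter on low values 0.0624. In tissue taken whole, fewer cells that make a peptide and less RNA per cell cannot be told apart.

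The other 2 opioid-family precursors, Pdyn and Pnoc, were not called, and the difference between their slopes and that of Penk was not tested. Pdyn, whose products act on the kappa receptor, was highest at 5 months, at 140 ± 28.5 (n = 8), against 119 ± 22.3 at 3 months (n = 7). At 26 months its samples were at 120, 130, 81.8, 121 and 90.9, a mean of 109 ± 21.2 that lay within the range of the 3-month samples, 83.4 to 153, except for the lowest. Its change over the span was -0.17, with a 95% interval of -0.42 to 0.087 (limma, adjusted p = 0.584). Pnoc showed the smallest fitted change of the 9, -0.017 over the span with an interval of -0.27 to 0.23 (adjusted p = 0.970). Its means lay between 52.7 ± 8.74 at 20 months (n = 7) and 58.3 ± 13.2 at 8 months (n = 7), and at 26 months the samples were at 70.4, 73.1, 40.9, 53.4 and 48.3. The lower ends of these intervals are -25.3% for Pdyn and -16.8% for Pnoc.

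Tac1, the precursor of substance P and neurokinin A, varied most between samples of 1 age, with Crh almost level. The SD of log2 values within ages was 0.345 for Tac1 and 0.343 for Crh. Over all 43 samples and all ages the highest Tac1 value was 3.44 times the lowest, from 456 at 14 months to 1569 at 5 months. At 3 months the lowest, median and highest were 701, 867 and 1396, and at 26 months the 5 samples were at 771, 939, 1082, 788 and 744. The 26-month samples thus all fell inside the 3-month range. The change over the span was -0.21 with an interval of -0.49 to 0.071 (limma, adjusted p = 0.519).

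Crh and Cck were the next members after Penk by size of slope, and neither passed the test. Crh samples at 3 months ran from 57.3 to 132 with a median of 79.3, at 14 months from 47.5 to 80.3 with a median of 69.7, and at 20 months from 41.4 to 84.2 with a median of 58.5. At 26 months they were at 64.0, 52.4, 84.7, 60.7 and 57.9, so that 4 of the 5 lay inside the 3-month range. Means were 80.9 ± 25.2 at 3 months (n = 7), 81.0 ± 23.3 at 5 (n = 8), 79.0 ± 18.3 at 8 (n = 7), 67.1 ± 10.6 at 14 (n = 9), 61.0 ± 15.7 at 20 (n = 7) and 64.0 ± 12.4 at 26 months (n = 5). The 3 younger means lay between 79.0 and 81.0 and the 3 older between 61.0 and 67.1, with overlapping samples. The change over the span was -0.43 (-0.73 to -0.13), which is -25.8%, with an adjusted p of 0.132 in limma.

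Cck, which encodes cholecystokinin, was lowest at 26 months, where the samples were at 731, 791, 533, 855 and 697. At 3 months they ran from 752 to 1192 with a median of 978, and at 20 months from 694 to 995 with a median of 793. Of the 5 samples of 26 months, 3 lay below every 3-month sample. Means were 964 ± 170 at 3 months (n = 7), 858 ± 165 at 5 (n = 8), 880 ± 76.2 at 8 (n = 7), 879 ± 118 at 14 (n = 9), 820 ± 121 at 20 (n = 7) and 722 ± 122 at 26 months (n = 5). At 26 against 3 months Cck had the smallest p of the members, with a change of -0.42 (-0.66 to -0.17) and an adjusted p of 0.123 in limma. Along the line it was -0.29 over the span (-0.48 to -0.095), with an adjusted p of 0.121.

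The interneuron peptides Sst, Npy and Vip were not called. Sst samples ran from 632 to 1149 at 3 months (median 1090), and at 26 months they were at 698, 786, 803, 900 and 642, all inside that range. Its change over the span was -0.20 (-0.42 to 0.019; limma, adjusted p = 0.408). Npy went from 123 ± 27.0 (n = 7) to 97.4 ± 16.4 (n = 5), with a change over the span of -0.25 (-0.50 to -0.0017; adjusted p = 0.351). The 26-month samples of Npy were at 99.2, 104, 77.9, 120 and 86.0, and those of 3 months ran from 87.6 to 168 with a median of 112. Vip, the marker of interneurons that inhibit other interneurons, was at 178 ± 21.2 at 3 months (n = 7), 184 ± 37.3 at 20 (n = 7) and 160 ± 26.1 at 26 months (n = 5). At 26 months 4 of its 5 samples lay between 162 and 179 and 1 was at 115. Its change over the span was -0.049 with an interval of -0.24 to 0.14 (adjusted p = 0.863), whose lower end is -15.3%.

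**Figure D2:**
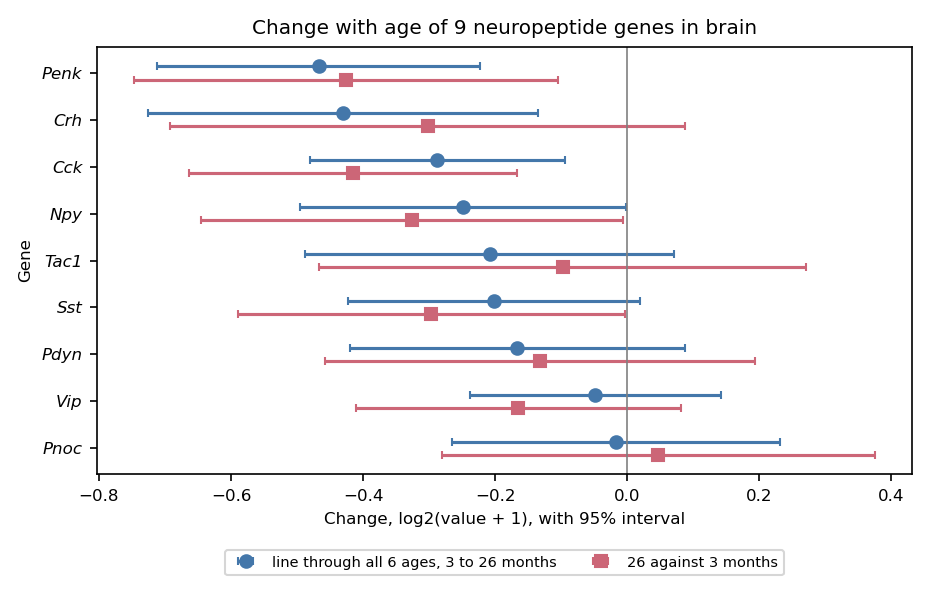
Change in log2(normalized read count + 1) of each of the 9 genes (horizontal axis), from the line through all 6 ages over the 23 months (circles) and from 26 against 3 months (squares), with 95% intervals. Points left of the vertical line at 0 are lower in old brains: 9 of 9 circles and 8 of 9 squares lie there, and only the Penk line passed the test over all genes.

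At 26 against 3 months 0 members were called, where 0.662% of all tested genes were, and 4 members (Cck, Penk, Npy and Sst) had an unadjusted p under 0.05, as had 1572 of all tested genes (10.1%). Of the 9 changes, 8 were below 0, with a median of -0.30 against -0.0051 for all tested genes, of which 51.0% were below 0. For 0 of the 9 did the samples of the 2 ages separate without overlap, against 1.05% of all tested genes. At 20 against 3 months 0 members were called against 0.173% of genes, and the changes were -0.39 for Crh, -0.30 for Penk and -0.23 for Cck, the 3 with an unadjusted p under 0.05, a level reached by 9.38% of all tested genes. No member was called at 26 against 14 months (0.167% of genes called, 1 member at an unadjusted p under 0.05 beside 1028 genes) or in the test of any age difference (0.482%, 2 members beside 936 genes). Against 3 months, limma called 0% of genes at 5, 8 and 14 months, with 496, 558 and 661 genes at an unadjusted p under 0.05, of which 0, 0 and 1 were members. edgeR and DESeq2 on the recovered reads called no member in these 7 comparisons, and both called Penk on the line.

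The spread within an age was larger than read sampling gives. The SD of log2 values within ages was 0.30 for Penk, where counting error gives 0.046, and 0.35 against 0.050 for Tac1. For Sst the values were 0.27 against 0.051, and for Cck 0.22 against 0.050. The least abundant gene came closest to its counting error, with 0.27 against 0.20 for Pnoc, so depth limits Pnoc more than the others. Vip had the smallest spread of the 9, at 0.21 against a counting error of 0.11.

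The rest of the neuropeptide pathway was read from lists of general knowledge. Of 28 other precursors 19 were tested and 0 were called on the line or at 26 against 3 months in limma, with 2 and 1 at an unadjusted p under 0.05. Over all tested genes 14% reached that unadjusted level on the line and 10.1% at 26 against 3 months, which is the background for this count and for those of the lists below. Their median change over the span was -0.17, beside -0.21 for the 9 members. The 3 with the smallest p at 26 against 3 months were Cort, Pomc and Nucb2. Cort, a relative of Sst, went from 22.7 ± 5.44 (n = 7) to 15.0 ± 9.67 (n = 5), a change of -0.84 with an adjusted p of 0.320. Pomc, the precursor of the melanocortins and beta-endorphin, was at 15.1 ± 18.2 and 69.0 ± 116 (limma, adjusted p = 0.563), and over all 45 libraries it ran from 0 to 938. The pituitary hormone genes Gh and Prl ran from 1.67 to 3200 and from 0 to 747, and the part of pituitary tissue in Pomc was not tested. On the line edgeR and DESeq2 called Pomc, and DESeq2, but not edgeR, also called Gh and Prl. Of the 5 tested genes of the choroid plexus and pituitary list, 0 had a slope below 0 (median 0.34 over the span). Nucb2, the nesfatin precursor, changed by -0.21 (adjusted p = 0.566).

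Of 21 receptor genes for the 9 peptides, 18 were tested, 0 were called in the same 2 comparisons, and 0 and 3 had an unadjusted p under 0.05. The somatostatin receptor gene Sstr2 was listed at 0 in all 45 libraries, as were Gfap and Nefl, so its value is not read as low expression. The median change over the span was -0.013, with 9 of 18 below 0. Vipr1, a receptor of vasoactive intestinal peptide, was at 95.6 ± 19.7 at 3 months (n = 7) and 73.3 ± 9.06 at 26 months (n = 5), with an adjusted p of 0.377 in limma. Cckbr, the brain-type cholecystokinin receptor, was at 213 ± 43.7 and 176 ± 19.5 (adjusted p = 0.490). Crhr2, a receptor of the corticotropin-releasing hormone family, was at 8.15 ± 4.70 and 13.3 ± 2.31 (adjusted p = 0.489).

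Genes that make, store and destroy peptides were not called either. Among 11 processing enzymes, all tested, 2 had an unadjusted p under 0.05 on the line and 2 at 26 against 3 months. Pcsk6, a proprotein convertase, was at 138 ± 29.9 at 3 months (n = 7) and 181 ± 23.9 at 26 months (n = 5; limma, adjusted p = 0.164), and on the line DESeq2 called it. Pcsk2, the convertase that cuts many neuropeptide precursors, was at 1894 ± 132 and 1757 ± 153 (adjusted p = 0.635), and Cpd, a carboxypeptidase, at 1101 ± 123 and 1227 ± 117 (adjusted p = 0.481). Among 10 dense-core granule proteins, 3 had an unadjusted p under 0.05 on the line and 2 at 26 against 3 months. Chga, a granin, was at 690 ± 123 and 532 ± 107, a change of -0.38 (adjusted p = 0.219). Vgf was at 844 ± 189 and 657 ± 83.4, a change of -0.34 (adjusted p = 0.271), and Chgb changed by -0.21 (adjusted p = 0.563). Of the 11 peptide-degrading enzymes 3 and 2 had an unadjusted p under 0.05. Dpp4, a dipeptidyl peptidase of the cell surface, was at 52.0 ± 9.80 and 76.4 ± 16.9, a change of 0.54 (limma, adjusted p = 0.0923), and DESeq2 called it. Lnpep and Ace changed by 0.48 (adjusted p = 0.225) and 0.75 (adjusted p = 0.547). Ace was low, at 11.4 ± 5.31 and 19.3 ± 7.75, near the filter value of 10.

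Lists of markers of brain regions and cell types were read beside the peptide genes, and their slopes differed in direction from list to list. All 12 striatum markers had slopes below 0, with a median of -0.19 over the span. The summed level of the list ran from 8089 to 12323 at 3 months and from 7639 to 9707 at 26 months. Slopes of the pan-neuronal list were below 0 for 9 of 9 tested genes (median -0.13), with Nefl listed at 0. Of 11 markers of excitatory neurons of cortex and hippocampus 9 were below 0 (median -0.16), and 6 of 10 of cortical interneurons (median -0.025). Slopes were below 0 for 5 of 7 GABAergic neuron markers (median -0.011), 5 of 10 hypothalamus markers (median 0.029), 5 of 8 of thalamus and midbrain (median -0.056) and 1 of 6 olfactory bulb markers (median 0.12). At 26 against 3 months, however, 4 of the 6 olfactory bulb markers were below 0 (median -0.13). The part of these lists in the decline of Penk was not tested.

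All 13 activity-induced genes lay below 0 at 26 against 3 months, with a median of -0.93. Called against 3 months were 5 of them, Fos, Arc, Junb, Ier2 and Btg2, at -1.05, -1.29, -0.94, -1.08 and -0.93 (limma, adjusted p = 0.0156, 0.00947, 0.0166, 0.0276 and 0.00746). On the line 0 of the 13 were called (median -0.50 over the span), with 12 at an unadjusted p under 0.05. Fos was at 956 ± 226 at 3 months (n = 7), 546 ± 140 at 5 months (n = 8) and 478 ± 183 at 26 months (n = 5), and Arc at 731 ± 194, 426 ± 169 and 319 ± 175. The means of both genes at 5 months were already below those at 3 months. In the comparison of 5 with 3 months 0 of the 13 were called by limma and 12 had an unadjusted p under 0.05. In the other lists Car8, listed as a cerebellar gene, fell by 0.56 over the span, but only 2 of the 5 tested genes of its list had slopes below 0 (median 0.057), and 3 of its 9 genes were at 0. The myelin genes Mag and Mobp rose by 0.35 and 0.39, the microglial complement gene C1qa by 0.80 and the endothelial gene Vwf by 1.13 over the span. Cldn11, a further myelin gene, rose by 0.42 from 14 to 26 months. Its mean was lowest at 14 months, at 979, against 1157 at 3 months, and on the line it was not called (limma, adjusted p = 0.526). The changes of Car8, Mag, Mobp, C1qa and Vwf over the span, and of Cldn11 from 14 to 26 months, passed the test over all genes. The relation of these genes to the peptide genes across ages was not tested. The medians of their lists over the span were smaller, at 0.13 for 7 oligodendrocyte, 0.18 for 6 microglia and 0.18 for 7 endothelial and pericyte genes. On the line 1 of the 6 microglia genes had an unadjusted p under 0.05.

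Samples of 1 age were next compared with each other, to see which members vary together. Each age's mean was subtracted, and 135 relations were computed: 36 pairs of members, and each member with 10 marker lists and with log2 reads per library. P-values came from 100000 permutations of samples within ages, adjusted over the 135. In all, 9 relations passed by Pearson's r, and 6 of them by Spearman's rho as well. Further relations passed by rho only and are given below. How often other genes of these samples reach such an r was not tested. The relations are therefore not shown to be particular to peptide genes or cell types. Cck, for example, had r = 0.87 with Selenow, the highest of 10253 genes.

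**Figure D3:**
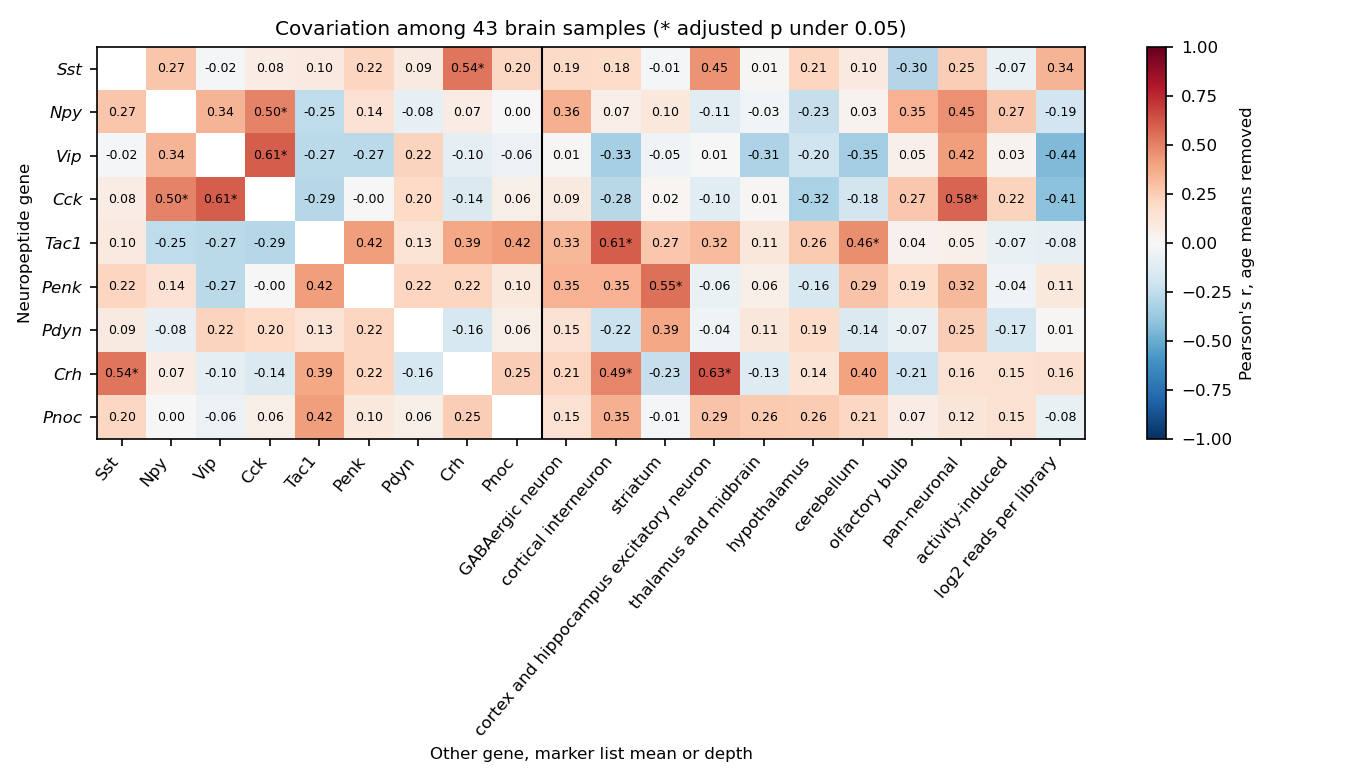
Pearson's r (colour and printed value, scale from -1 to 1) over 43 brain samples, age means removed, between each neuropeptide gene (rows) and the other genes, marker list means and log2 reads per library (columns). Stars mark an adjusted permutation p under 0.05 for r. The highest values are 0.63 for Crh with excitatory neuron markers and 0.61 for Vip with Cck and for Tac1 with cortical interneuron markers.

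Of the 36 pairs of members, 3 passed. Vip and Cck had r = 0.61 and rho = 0.59 (adjusted permutation p = 0.00472 and 0.0036, n = 43), and r = 0.60 without the 2 samples farthest from the median of Cck. In each relation, here and below, the 2 samples left out were those farthest from the median of the second gene or list named. Extremes of the first gene were not left out as such. For Sst and Crh the values were r = 0.54 and rho = 0.47 (adjusted permutation p = 0.0101 and 0.0421), with r = 0.51 without 2 samples. Npy and Cck had r = 0.50 and rho = 0.53 (adjusted permutation p = 0.0137 and 0.0113), with r = 0.45 without 2 samples. Tac1 and Pdyn, both known from projection neurons with the D1 receptor, had r = 0.13 and did not pass, nor did Tac1 and Penk, at r = 0.42 (adjusted permutation p = 0.0878). Vip and Cck also went with depth in the opposite direction, at r = -0.44 and -0.41 (adjusted permutation p = 0.0503 and 0.0914). By rho the relation of Vip with depth passed (rho = -0.47, adjusted permutation p = 0.0421) and that of Cck did not (rho = -0.40, adjusted permutation p = 0.107), and the part of depth in their relation was not tested.

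**Figure D4:**
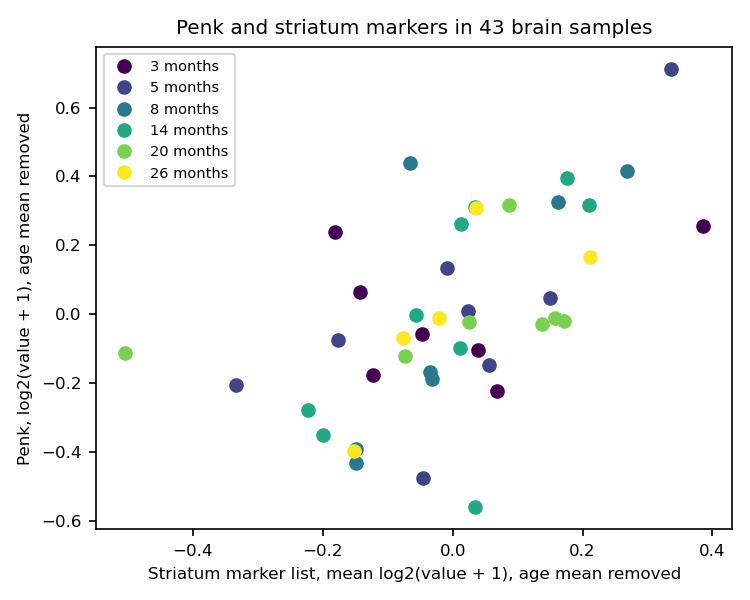
Penk (vertical axis) against the mean of 12 striatum markers (horizontal axis), both log2(normalized read count + 1) with the mean of the age subtracted. Points are 43 brain samples coloured by age. The cloud rises from left to right (r = 0.55), and samples of each age are spread along it.

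With the marker lists, Penk went with the striatum list (r = 0.55, rho = 0.57, adjusted permutation p = 0.00585 and 0.00641, and r = 0.59 without the 2 farthest samples). Pdyn had r = 0.39 with it (adjusted permutation p = 0.146) and Tac1 r = 0.27. The list is a mean over 12 genes of the same libraries, so samples high in Penk tended to be high in other striatal genes at the same age. Crh went with excitatory neuron markers of cortex and hippocampus, at r = 0.63 and rho = 0.67 (adjusted permutation p = 0.00135 for both, where the unadjusted 1e-05 is the smallest that the permutations can give, and r = 0.59 without 2 samples). Cck went with the pan-neuronal list, at r = 0.58 and rho = 0.64 (adjusted permutation p = 0.00607 and 0.0027, r = 0.64 without 2 samples).

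The other 3 relations passed by r and not by rho. Tac1 had r = 0.61 with cortical interneuron markers (rho = 0.46, adjusted permutation p = 0.00621 and 0.0558), falling to 0.45 without the 2 farthest samples. Crh with the same list had r = 0.49 and rho = 0.44 (adjusted permutation p = 0.0309 and 0.0558, r = 0.44 without 2 samples). Tac1 with the cerebellum list had r = 0.46 and rho = 0.43 (adjusted permutation p = 0.0316 and 0.0648, r = 0.48 without 2 samples). The cerebellum list shares Pvalb with the cortical interneuron list, and only 5 of its 9 genes were tested. Pcp2, Cbln1 and Neurod1 were at 0, and Gabra6 and Cbln3 had medians of 0 and 5.52 normalized counts. How far the mean of this list follows cerebellar tissue was not tested. By rho and not by r, Sst passed with excitatory neuron markers of cortex and hippocampus (rho = 0.48, r = 0.45, adjusted permutation p = 0.0421 and 0.0503). So did Npy with the pan-neuronal list (rho = 0.48, r = 0.45, adjusted permutation p = 0.0421 and 0.0584), and Vip with depth, as given above. No member passed with the activity-induced list, where r ran from -0.17 for Pdyn to 0.27 for Npy.

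The genes whose pattern was most like each member were taken from 10253 tested genes with a mean of at least 50, by Pearson's r over the 43 age-centred samples, as a description. Tac1 had the closest neighbours, led by Kcnab1 at r = 0.88 and Id4 at 0.82. Cck was closest to Selenow (0.87) and Lsm4 (0.84), and Crh to Tgoln1 (0.83) and Klf6 (0.82), with Neurod2 also among the nearest 5 at 0.81. Sst was closest to Capzb (0.82) and Ptms (0.76), and Vip to Agap2 (0.75) and Fxyd6 (0.75). Penk was closest to Cdc37 (0.74), Dnajc9 (0.69) and Ppp1r9b (0.69), followed by the adenosine receptor gene Adora2a, a member of the striatum list, at 0.68. Npy (Cd302, 0.67), Pdyn (Klhl13, 0.64) and Pnoc (Eaf1, 0.61) had neighbours at lower r.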

How the data were processed

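Brain RNA was made into libraries with a TruSeq kit and a ligation-mediated protocol, per the labels' protocols. Per the submitters' processing notes, the tools included HISAT2 2.1.0 for GRCm38, bcl2fastq 2.20, SAMtools, cutadapt, DESeq2 and R 3.5.1. Which program counted reads, and on which annotation, is not given in the sources used here, and strand use is unknown, so reads of overlapping genes may be mixed. The deposited signal values are normalized read counts per gene symbol. Dividing by the step of each library gave whole reads for 100% of values (tolerance 0.01 read). In 2 of 990 pairs of libraries the variance of low-count genes was below that of read sampling, and these were averaged.

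Tests used limma 3.58.1 in R 4.3.3 on log2(value + 1), with the trend option, 2-sided and adjusted over all tested genes. This scale slightly understates changes of low genes. edgeR 4.0.16 and DESeq2 1.42.0 on recovered reads, other filters, pseudocounts, scalings and left-out samples were alternatives. Permutations and figures used scipy 1.17.1 and matplotlib 3.10.9. The tests were also run on simulated data. Named genes are the members, list genes that were called (the 5 with the smallest p where over 10), the 3 with the smallest p at 26 against 3 months in each pathway list, and the nearest genes by r; 1 list gene that was called is not reported here. The members and lists were chosen with earlier results of these data known.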

Additional observations from a re-analysis of the deposited data

Results flagged for a closer look

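In each of the 54 groups of 1 gene at 1 age, the highest and the lowest sample were compared with the nearest other sample by Dixon's test, which by chance marks about 1 in 20 groups. It marked 6. Penk stood apart at 5 months, where replicate 4 was at 2015 and the next sample at 1349, and at 20 months, where replicate 3 was at 1160 and the next at 924. Vip had a high sample at 20 months (replicate 1 at 259.9, next 187) and a low one at 26 months (replicate 3 at 115, next 162). Npy at 14 months had replicate 6 at 164, with the next at 111. Crh at 3 months had replicate 5 at 132, with the next at 85.3. The Penk call on the line was kept without either of its 2 samples.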

How the results depend on the processing

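The number of members called on the line went from 1 to 0 with no filter on low values, with log2 of age and without the 3-month samples, and ran from 0 to 1 when each of the 43 samples was left out in turn; it was 0 without 26-month replicates 1 and 4. Leaving out the samples of 3 to 20 months one by one was chosen after seeing the data. The adjusted p of Penk ran from 0.00961 to 0.0908 over all alternatives; with edgeR, DESeq2, a pseudocount of 5, TMM scaling and all 45 libraries Penk was called. Members with a slope below 0 numbered 7 to 9 with a sample left out and 8 or 9 otherwise. With a sample left out, the Vip slope per month ran from -0.0042 to 0.0013 (above 0 without 26-month replicate 3) that of Pdyn from -0.0096 to -0.0042 (the latter without 26-month replicate 3, against -0.0072), and the Pnoc slope per month from -0.0032 to 0.0019 (2.3e-05 without the pair of 5-month replicates 1 and 6); with log2 of age the Pnoc slope was 0.0014. At 26 against 3 months Tac1 ran from -0.18 to 0.0032 (above 0 without 3-month replicate 5) and Pnoc from -0.049 to 0.16. Relations past the threshold numbered 14 with a pseudocount of 5, against 9. The causes were not tested.

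Of all tested genes, DESeq2 called 174 for any age difference (limma 75), 412 on the line (246), 58 at 26 against 14 months (26), 3 at 14 against 3 (0), 82 at 20 against 3 (27) and 169 at 26 against 3 months (103). edgeR called 41 at 26 against 14 and 41 at 20 against 3 months. Without the 3-month samples 135 were called on the line. At 26 against 14 months 7, 17 and 17 were called without 26-month replicates 1, 4 and 5. At 26 against 3 months 67 were called without 26-month replicate 1 and 53 with only those 2 ages fitted. No paired analysis was possible because the replicate numbers here only name samples. Titles carry ET codes, some shared between ages, that the labels do not explain, and no fit used them. Depth limits Pnoc and Crh most, and 5 samples at 26 months limit every comparison with that age.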

Other observations

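The spleens of the ageing series were normalized separately and give a second tissue for the same genes. Their titles carry the same codes as those of the brains, and brain and spleen were not paired here. Penk was read in all 45 spleen libraries, at 11.1 to 117 normalized counts with a median of 45.6. The other 8 genes had medians of 0 to 1.67, and their highest values ran from 1.79 for Npy to 22.4 for Sst. Npy and Vip were at 0 in 33 of 45 spleens and Pdyn in 39. Levels in the 2 tables are not on 1 scale and were not compared.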
